A study of Mus musculus with 12 samples.

Results

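The genes described are 9 that encode the CBX, PHC and RING subunits of canonical Polycomb repressive complex 1 (PRC1), namely Cbx2, Cbx6, Cbx7 and Cbx8, Phc1, Phc2 and Phc3, and Ring1 and Rnf2. They were chosen by name as subunits of this complex, and are 9 of the 37991 gene identifiers in the count table. All 9 passed the filter on low counts that left 16708 genes for testing. RNA was sequenced from primordial germ cells (PGCs), the precursors of eggs and sperm, sorted from 12 mouse embryos at E13.5, in mid-gestation, all of C57BL/6 background. In females, 2 embryos were conditional knockouts of Ezh2 (CKO) and 3 were controls (Ctrl), and in males 3 were CKO and 4 were Ctrl. A library holds the germ cells of a single embryo, which had been genotyped by PCR, so the spread given is between embryos. The labels name neither the Cre driver, nor the genotype of the controls, nor the part of Ezh2 that was deleted.

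Canonical PRC1 is a repressor that is recruited to chromatin by another Polycomb complex. PRC2, whose main methyltransferase is Ezh2, trimethylates lysine 27 of histone H3, and the chromodomain of a CBX protein binds that mark. The RING proteins are ubiquitin ligases that add a single ubiquitin to histone H2A, and the PHC proteins polymerise and help to compact chromatin. In mice, loss of Rnf2 in the female germline leads to early meiotic entry, and loss of Cbx2 disturbs gonadal sex.

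Library totals ran from 26180685 to 35299206 counts, so that 1 CPM (counts scaled to library size, with trimmed-mean factors) stood for 24.2 to 34.2 counts. The targeted gene Ezh2 averaged 95.6 ± 15.7 CPM in female CKO (SD, n = 2) and 154 ± 10.9 CPM in female Ctrl (n = 3). In males Ezh2 averaged 84.4 ± 1.79 CPM in CKO (n = 3) and 122 ± 19.9 CPM in Ctrl (n = 4). It fell in females (log2 fold change -0.68, SE 0.15, adjusted p = 0.02), and in males the value was -0.53 (SE 0.13, adjusted p = 0.0527), with no overlap between CKO and Ctrl in either sex. The call in females was lost without female CKO embryo 1 or female Ctrl embryo 3 (highest adjusted p = 0.165). In males Ezh2 was called in 4 of 20 alternative fits. Averaged over the sexes, its log2 fold change was -0.61 (SE 0.10, adjusted p = 0.0022), called in all 19 alternatives. Counts over the whole gene do not show how much intact transcript was left. The 8 germ cell markers, which include Ddx4 and Dazl, gave a sum of 5504 to 6155 CPM whichever library was taken, most of it Dazl and Ddx4. Of the other 6, 4 were lower in female CKO than in female Ctrl without overlap. Over all tested genes, 44.6% did not overlap between these groups, higher or lower. Ddx4 lay the other way without overlap, at 1190 to 1386 CPM in female CKO, against 1085 to 1187 CPM in female Ctrl. Pou5f1 was at 128 and 156 CPM in female CKO, against 196 to 220.5 CPM in female Ctrl, and Dppa3 was at 408 and 441 CPM in female CKO, against 564 to 757 CPM in female Ctrl. Kit was at 335 and 389.6 CPM in female CKO, against 473 to 554 CPM in female Ctrl, and Dnd1 was at 119 and 171 CPM in female CKO, against 194 to 224 CPM in female Ctrl. Their part in the female results was not tested. Sertoli cell markers summed to 10.5 to 41.1 CPM over all libraries, pregranulosa markers to 3.44 to 12 CPM, steroidogenic markers to 1.16 to 7.01 CPM, red blood cell markers to 0.0921 to 17.5 CPM, macrophage markers to 0.0338 to 5.32 CPM and coelomic epithelium markers to 25.8 to 68 CPM. Endothelial markers summed to 131 to 326 CPM, of which Pecam1, which germ cells also express, made up 129 to 324 CPM, while Kdr, Tie1, Cdh5 and Esam did not exceed 0.512, 0.421, 2.12 and 2.08 CPM. Cdh5 was at 0.205 to 0.782 CPM in female CKO, against 0.0343 to 0.154 CPM in female Ctrl. In males Cdh5 was at 0.894 to 2.12 CPM in CKO, against 0.416 to 0.596 CPM in Ctrl. Kdr was also higher in female CKO (0.351 and 0.512 CPM) than in female Ctrl (0.103 to 0.188 CPM). So was Tie1, at 0.293 and 0.421 CPM against 0.0313 to 0.206 CPM. Kdr and Tie1 overlapped in males, Esam overlapped in both sexes, and Pecam1 was lower in female CKO. The part of these markers in the results was not tested. Red blood cell markers summed to 10.1 CPM in female CKO embryo 1 and to 17.5 CPM in male CKO embryo 1. They summed to at most 1.31 CPM in every other library, and their part in the results was not tested. In these bulk samples, fewer cells with a transcript and less of it per cell cannot be told apart. Stromal markers summed to 10.5 and 29.6 CPM in female CKO and to 1.69 to 9.61 CPM in female Ctrl, and to 3.92 to 22.2 CPM in male CKO and 5.46 to 14.5 CPM in male Ctrl.

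Upstream sequence is shown for Phc2, Cbx8 and Ring1, because these are the genes of the family that changed between male CKO and male Ctrl (3 of 9, beside 1.7% of all tested genes). The stretches come from RefSeq on build GRCm38.p6, end before the outermost start of the gene in GENCODE M21 (which leaves 194 bases for Cbx8), and read 5′ to 3′ on the strand of the gene. Capitals mark the letters GGGCGG (a GC box) on either strand. Phc2 has several annotated starts and the gene counts do not say which was used, so the outermost start is shown (chr4:128654452-128654701, plus strand). Cbx8 lies on the minus strand (chr11:119040970-119041163), as does Ring1 (chr17:34024681-34024930).
Phc2: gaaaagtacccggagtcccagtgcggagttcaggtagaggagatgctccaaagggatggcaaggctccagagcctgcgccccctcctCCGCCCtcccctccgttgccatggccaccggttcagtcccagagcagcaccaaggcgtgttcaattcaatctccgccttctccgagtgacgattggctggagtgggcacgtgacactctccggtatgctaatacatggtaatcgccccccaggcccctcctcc
Cbx8: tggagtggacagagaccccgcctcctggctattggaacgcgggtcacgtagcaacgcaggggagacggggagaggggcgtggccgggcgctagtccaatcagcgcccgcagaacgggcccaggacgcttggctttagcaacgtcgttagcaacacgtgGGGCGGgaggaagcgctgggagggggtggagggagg
Ring1: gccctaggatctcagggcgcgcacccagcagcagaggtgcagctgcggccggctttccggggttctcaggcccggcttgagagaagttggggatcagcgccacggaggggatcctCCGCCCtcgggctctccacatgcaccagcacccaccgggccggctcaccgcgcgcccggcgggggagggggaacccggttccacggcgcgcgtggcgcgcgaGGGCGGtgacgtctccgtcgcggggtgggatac

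Over the 250 bases before the RefSeq start, the Cbx8 sequence held 22 CpG dinucleotides and the Ring1 sequence 30, against a median of 6 over the 32851 promoters in the table. The stretch before the outermost Phc2 start held 13 CpG, and those before its other starts held 1 and 34. GGGCGG occurred in 32.7% of all promoters on either strand, CCAAT in 33.8% and CACGTG in 6.02%. The Ring1 stretch had 2 matches to GGGCGG and none to the other motifs. The Cbx8 stretch had 1 match to GGGCGG, 2 to CCAAT and 1 to CACGTG, and the outermost Phc2 stretch had 1 of each. These matches describe the letters of the window and do not show that a factor binds there. The annotated starts of Cbx6, Cbx7, Phc1, Phc3 and Rnf2 held between 8 and 23 CpG, with the fewest at Phc1 and the most at Cbx7. The promoter table matched 8 of the 9 genes, all but Cbx2.

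**Figure D1:**
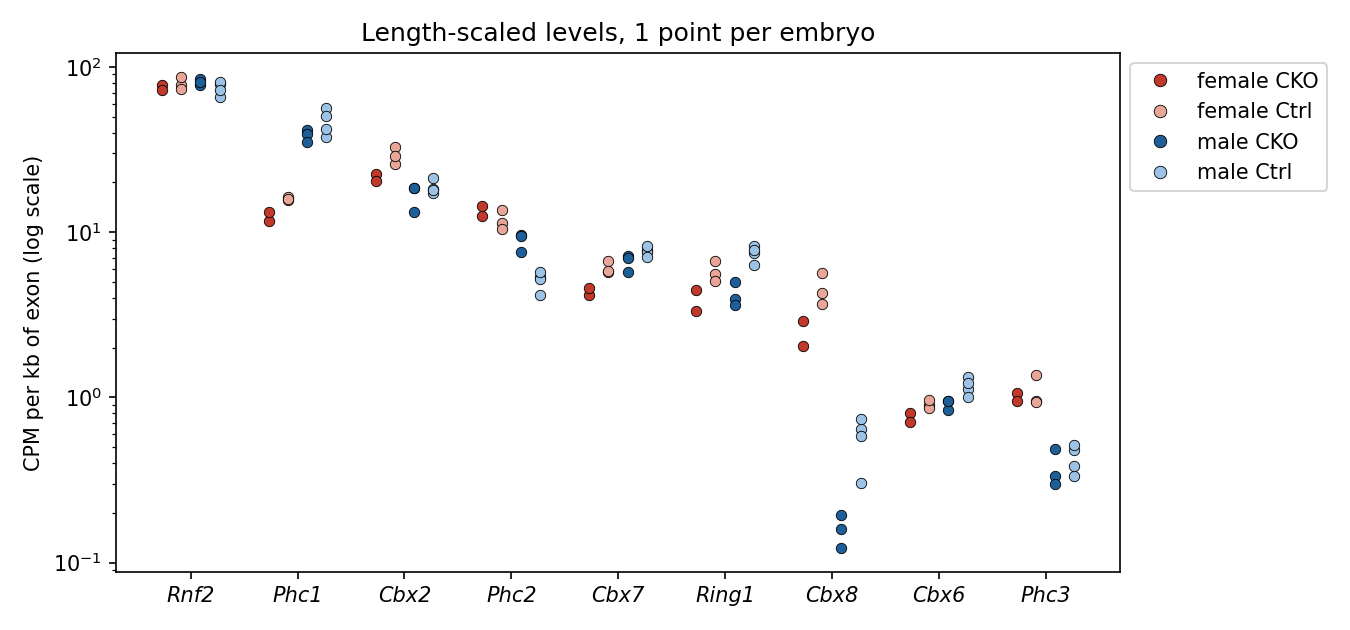
Level of each gene in CPM per kb of joined exons (log scale), with 1 point per embryo, CKO left of Ctrl and females left of males. Rnf2 stands highest in all 4 groups, Phc1 stands above Cbx2 in males and below it in females, and Cbx8 lies at 0.158 CPM per kb in male CKO.

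Rnf2 had the highest length-scaled level of the 9 genes in every group, at 75.4 CPM per kb of exon in female CKO, 79.7 in female Ctrl, 80.9 in male CKO and 74.4 in male Ctrl. The gene in second place depended on sex. In females it was Cbx2, at 21.5 CPM per kb in CKO and 29.1 CPM per kb in Ctrl, and in males it was Phc1, at 38.7 CPM per kb in CKO and 46.6 CPM per kb in Ctrl. The lowest place went to Cbx6 in females (0.757 CPM per kb in CKO, 0.91 in Ctrl), to Cbx8 in male CKO (0.158) and to Phc3 in male Ctrl (0.427). Some neighbours in these orders overlapped between embryos. Phc2 and Phc1 overlapped in female CKO, Cbx7 and Ring1 overlapped in female CKO, female Ctrl and male Ctrl, Ring1 and Cbx8 as well as Phc3 and Cbx6 overlapped in female Ctrl, and Cbx8 and Phc3 overlapped in male Ctrl. In male CKO all adjacent genes were separated. The length of the longest coding transcript was also used in place of all exons, a choice made after the values were seen. Rnf2 then stayed first in all 4 groups. On group means, Phc2 moved above Phc1 in female Ctrl (21.1 against 20.0 CPM per kb). It moved level with Cbx2 in female CKO (24.1 against 24 CPM per kb). Phc3 moved above Cbx8 in male Ctrl (0.68 against 0.583 CPM per kb). Each of these pairs of genes overlapped between embryos.

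**Figure D2:**
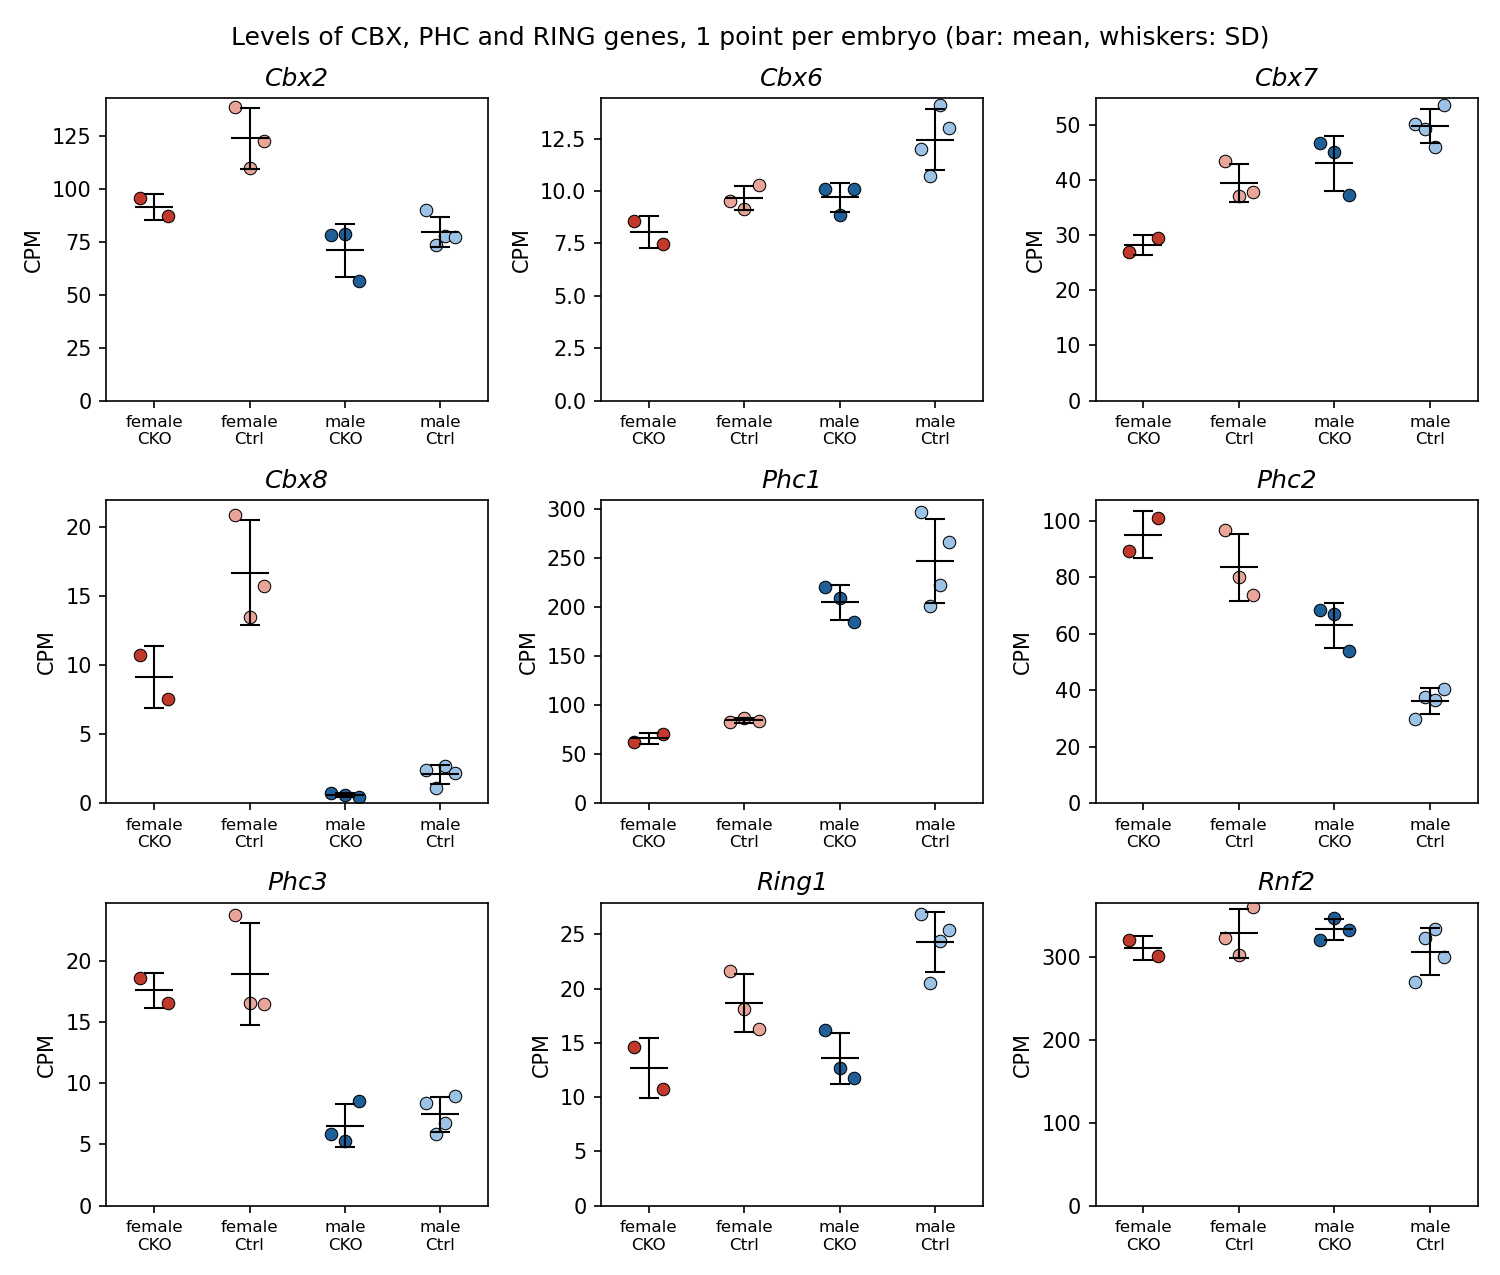
CPM of the 9 genes with 1 point per embryo, the group mean as a bar and the SD as whiskers, each axis starting at 0. In males, Cbx8 and Ring1 sit lower and Phc2 higher in CKO than in Ctrl without overlap, and Phc1 is high and Cbx8 and Phc3 are low in both male groups.

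Among the CBX genes, whose products read the histone mark, Cbx8 had the largest CKO difference in males. Cbx8 (ENSMUSG00000025578, chromosome 11) was measured at 0.711, 0.59 and 0.447 CPM in male CKO, against 2.37, 1.11, 2.71 and 2.16 CPM in male Ctrl. All 3 CKO embryos lay below all 4 Ctrl embryos. These levels rest on 21, 17 and 13 counts in male CKO and on 81, 27, 82 and 57 counts in male Ctrl. Cbx8 fell by 1.84 on the log2 scale (SE 0.34, 3.58-fold lower in CKO, adjusted p = 0.019, edgeR quasi-likelihood test). The call was lost when only the male groups were fitted (adjusted p = 0.0857), and without male CKO embryo 2 (0.106), male CKO embryo 3 (0.103) or male Ctrl embryo 3 (0.0547), while the log2 fold change stayed between -2.04 and -1.68 over all alternatives.

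In females Cbx8 was far more abundant, at 10.68 and 7.55 CPM in CKO and 20.85, 13.51 and 15.71 CPM in Ctrl. Female CKO embryos again lay below all female Ctrl embryos, but the log2 fold change of -0.87 (SE 0.34) had an adjusted p of 0.14. The CKO effect in females minus that in males was 0.97 (SE 0.46, adjusted p = 0.601), so a difference between the sexes in the size of the effect was not shown. Averaged over the sexes, the CKO effect on Cbx8 was -1.36 (SE 0.24, adjusted p = 0.0032), and it was called under all 19 alternatives tried for that average. The log2 fold changes between the sexes were larger. Cbx8 was 15.5-fold higher in female CKO than in male CKO (log2 fold change 3.96, SE 0.37, adjusted p = 8.26e-06). In controls it was 7.95-fold higher in females than in males (2.99, SE 0.29, adjusted p = 6.39e-06).

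Cbx7 (ENSMUSG00000053411, chromosome 15), the main CBX gene of mouse embryonic stem cells, was the 1 gene of the family called in females, where 7.17% of all tested genes were. It was measured at 27 and 29.6 CPM in female CKO, against 43.5, 37.1 and 37.9 CPM in female Ctrl. The groups did not overlap, and Cbx7 fell by 0.48 on the log2 scale (SE 0.14, adjusted p = 0.0487). That call was close to the threshold: it held in 4 of 20 alternatives, among them DESeq2 and the fits without male CKO embryo 3 or male Ctrl embryo 2, and adjusted p ran from 0.011 to 0.247 over all 20. It was lost without any one of the other 10 embryos. In males Cbx7 was at 46.7, 45.2 and 37.3 CPM in CKO and 50.3, 49.4, 46.1 and 53.6 CPM in Ctrl, with overlapping groups and a log2 fold change of -0.21 (SE 0.11, adjusted p = 0.369). The average over the sexes was -0.35 (SE 0.09, adjusted p = 0.0201), and it was lost without female CKO embryo 1 (0.0864) or male CKO embryo 3 (0.0559) and with scaling by library size alone (0.0572). Cbx7 was lower in females than in males, by a log2 fold change of -0.61 among CKO embryos (SE 0.14, adjusted p = 0.00349) and of -0.34 among Ctrl embryos (SE 0.11, adjusted p = 0.0294). The difference among Ctrl embryos was lost without female Ctrl embryo 2 (0.0988), female Ctrl embryo 3 (0.0947) or male Ctrl embryo 4 (0.0718) and with scaling by library size alone (0.12) or no filter on low counts (0.0643).

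Cbx2 (ENSMUSG00000025577, chromosome 11) encodes the CBX protein that compacts nucleosomes, and it was the CBX gene with the highest length-scaled level in all groups. It was measured at 95.9 and 87.1 CPM in female CKO, against 139, 110.0 and 123 CPM in female Ctrl. These groups did not overlap, but the log2 fold change of -0.44 (SE 0.15) had an adjusted p of 0.104. In males Cbx2 was at 78.1, 78.7 and 56.6 CPM in CKO and 90.0, 73.6, 77.8 and 77.2 CPM in Ctrl, which overlap (-0.16, SE 0.13, adjusted p = 0.569). Among controls Cbx2 was 1.55-fold higher in females (0.64, SE 0.13, adjusted p = 0.00143), with no overlap between the sexes. Among CKO embryos the female over male log2 fold change was 0.36 (SE 0.15, adjusted p = 0.0739). Cbx6 (ENSMUSG00000089715, chromosome 15) was a low CBX gene in all groups, averaging 8.03 ± 0.767 CPM in female CKO (SD, n = 2) and 9.66 ± 0.577 CPM in female Ctrl (n = 3). Male CKO averaged 9.69 ± 0.705 CPM (n = 3) and male Ctrl 12.5 ± 1.42 CPM (n = 4) for Cbx6. CKO embryos lay below Ctrl embryos of the same sex without overlap, yet neither contrast passed (adjusted p = 0.428 in females and 0.263 in males).

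**Figure D3:**
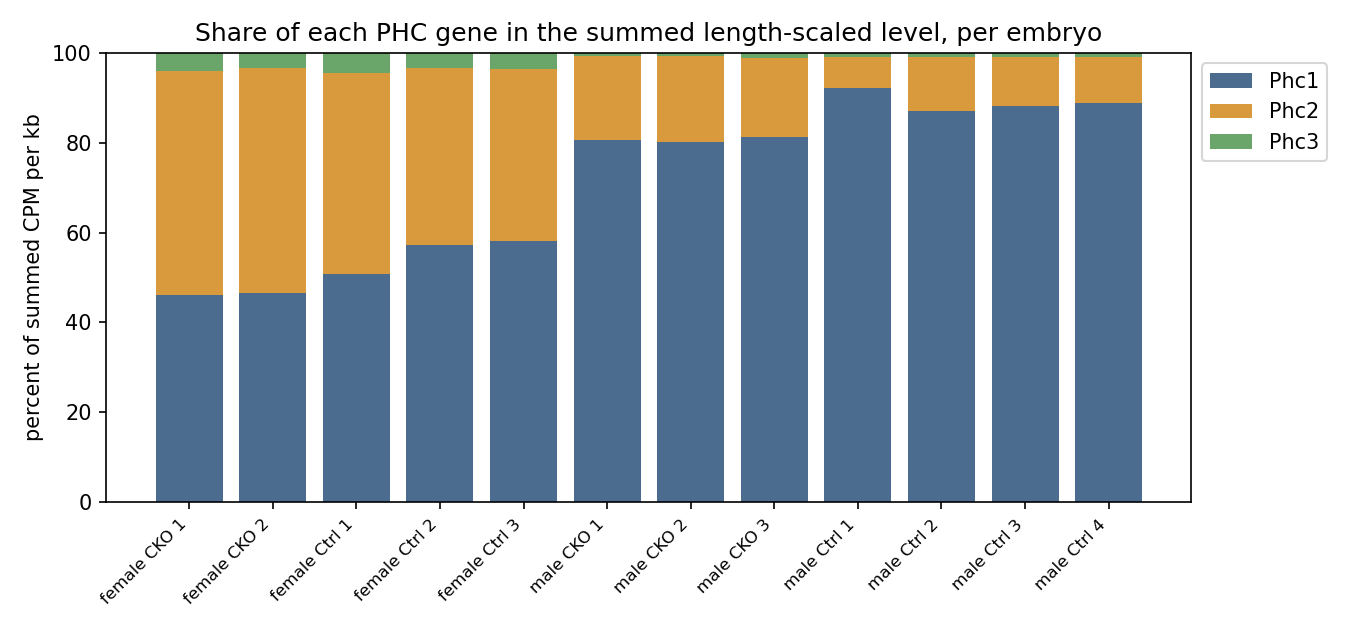
Share of Phc1, Phc2 and Phc3 in their summed CPM per kb, stacked for each of the 12 embryos on an axis from 0 to 100%. The Phc2 band is widest in female CKO (49.7 and 50.1%) and narrowest in male Ctrl (6.9 to 12.2%), with male CKO at 17.7 to 19.3%.

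All 3 PHC genes differed between the sexes in both genotypes. Of all tested genes, 38.4% were called between the sexes among CKO embryos and 39.5% among Ctrl embryos. Phc2 also rose in male CKO. Phc2 (ENSMUSG00000028796, chromosome 4) was measured at 68.2, 67 and 53.8 CPM in male CKO, against 29.6, 37.6, 36.5 and 40.5 CPM in male Ctrl. The groups were well apart, and Phc2 rose 1.75-fold (log2 fold change 0.81, SE 0.13, adjusted p = 0.0115). The call was lost without male CKO embryo 2 (adjusted p = 0.0739) and held in the other 19 alternatives. In females Phc2 was at 89.1 and 101 CPM in CKO and 96.6, 80.0 and 73.7 CPM in Ctrl, which overlap, with a log2 fold change of 0.19 (SE 0.16, adjusted p = 0.515). The effect in females minus that in males was -0.62 (SE 0.21), which had an unadjusted p of 0.0108 and an adjusted p of 0.496. Averaged over the sexes, Phc2 rose by 0.50 (SE 0.10, adjusted p = 0.00757), a call that held in all 19 alternatives. Phc2 was 2.31-fold higher in female Ctrl than in male Ctrl (1.21, SE 0.13, adjusted p = 1.65e-05) and 1.51-fold higher in female CKO than in male CKO (0.59, SE 0.16, adjusted p = 0.00951). The difference among CKO embryos was lost without female CKO embryo 2 (0.0782).

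Phc1 (ENSMUSG00000040669, chromosome 6), the PHC gene that is high in mouse embryonic stem cells, had the opposite sex difference. It was measured at 62.1 and 70.2 CPM in female CKO and at 220.5, 209 and 185 CPM in male CKO, where it was 3.1-fold lower in females (log2 fold change -1.63, SE 0.16, adjusted p = 9.25e-06). In controls Phc1 was at 82.5, 87 and 83.8 CPM in females and at 297, 201, 223 and 266 CPM in males, 2.92-fold lower in females (-1.55, SE 0.13, adjusted p = 1.67e-06). No female embryo reached the level of any male embryo. Between genotypes the female groups did not overlap and the male groups did, and neither contrast passed (-0.35, SE 0.15, adjusted p = 0.172 in females; -0.27, SE 0.12, adjusted p = 0.294 in males). The average over the sexes was -0.31 (SE 0.10, adjusted p = 0.0466), a call that held in 4 of 19 alternatives and was lost in 11 of the 12 fits that leave out an embryo, all but that without male Ctrl embryo 2 (adjusted p of 0.0536 to 0.177 where lost).

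Phc3 (ENSMUSG00000037652, chromosome 3), the lowest PHC gene in every group, was higher in females. It averaged 17.6 ± 1.38 CPM in female CKO (SD, n = 2) and 6.54 ± 1.78 CPM in male CKO (n = 3), a 2.69-fold difference (1.43, SE 0.26, adjusted p = 0.000839). In controls Phc3 averaged 19 ± 4.21 CPM in females (n = 3) and 7.46 ± 1.45 CPM in males (n = 4), a 2.54-fold difference (1.34, SE 0.22, adjusted p = 0.00032). CKO and Ctrl overlapped in both sexes, with log2 fold changes of -0.11 (SE 0.26) in females and -0.19 (SE 0.22) in males. The PHC genes are given next as shares of their summed CPM per kb, with no test. Phc1 made up 46.3 ± 0.25% in female CKO (SD, n = 2), 55.4 ± 3.97% in female Ctrl (n = 3), 80.7 ± 0.524% in male CKO (n = 3) and 89.1 ± 2.26% in male Ctrl (n = 4). Phc2 made up 49.9 ± 0.347% in female CKO, 40.8 ± 3.38% in female Ctrl, 18.5 ± 0.8% in male CKO and 10.0 ± 2.26% in male Ctrl. The Phc2 share was higher in every CKO embryo than in every Ctrl embryo of its sex. With the longest coding transcript as the length, the Phc2 shares were 58.1% in female CKO and 49.1% in female Ctrl. In males they were 24.4% in CKO and 13.7% in Ctrl. In female Ctrl the mean Phc2 share was then above that of Phc1 (46.9%), but the embryos differed in this order. Phc2 led in female Ctrl embryo 1 (52.9 against 42.4%). Phc1 led in female Ctrl embryo 2 (48.7 against 47.8%) and embryo 3 (49.7 against 46.6%). These are shares of RNA and say nothing of the proteins in the complex.

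Ring1 fell in male CKO, while Rnf2 was called in no comparison. Ring1 (ENSMUSG00000024325, chromosome 17) was measured at 16.2, 12.7 and 11.8 CPM in male CKO, against 26.9, 20.5, 24.4 and 25.4 CPM in male Ctrl. All CKO embryos lay below all Ctrl embryos, and Ring1 fell by 0.84 on the log2 scale (SE 0.17, 1.79-fold lower in CKO, adjusted p = 0.0296). The call was lost when only the male groups were fitted (adjusted p = 0.0612) and without male CKO embryo 2 (0.147), male CKO embryo 3 (0.141), male Ctrl embryo 3 (0.0715) or male Ctrl embryo 4 (0.0637). In females Ring1 was at 14.6 and 10.7 CPM in CKO, against 21.6, 18.1 and 16.3 CPM in Ctrl, again without overlap, with a log2 fold change of -0.56 (SE 0.20, adjusted p = 0.115). Averaged over the sexes, Ring1 fell by 0.70 (SE 0.13, adjusted p = 0.00493), a call that held in all 19 alternatives. Females and males did not pass as different, at -0.10 (SE 0.20) among CKO embryos and -0.38 (SE 0.17, adjusted p = 0.0923) among Ctrl embryos.

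Rnf2 (ENSMUSG00000026484, chromosome 1), the RING gene that is essential in the mouse embryo, was measured at 321 and 301 CPM in female CKO, against 323, 303 and 361 CPM in female Ctrl. In males it was at 321, 347 and 333 CPM in CKO and 270.3, 323, 334 and 300.1 CPM in Ctrl. The groups overlapped in both sexes, and the log2 fold changes were -0.08 (SE 0.11, adjusted p = 0.709) in females and 0.12 (SE 0.09, adjusted p = 0.55) in males. These small values do not show that Rnf2 was equal between groups. Ring1 made up 4.9 ± 0.791% of the summed CPM per kb of both RING genes in female CKO (SD, n = 2) and 6.79 ± 1.23% in female Ctrl (n = 3). In males the Ring1 share was 4.93 ± 0.95% in CKO (n = 3) and 9.23 ± 1.62% in Ctrl (n = 4). The male groups did not overlap in this share, at 4.31 to 6.03% in CKO and 7.47 to 11.2% in Ctrl, while the female groups overlapped.

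**Figure D4:**
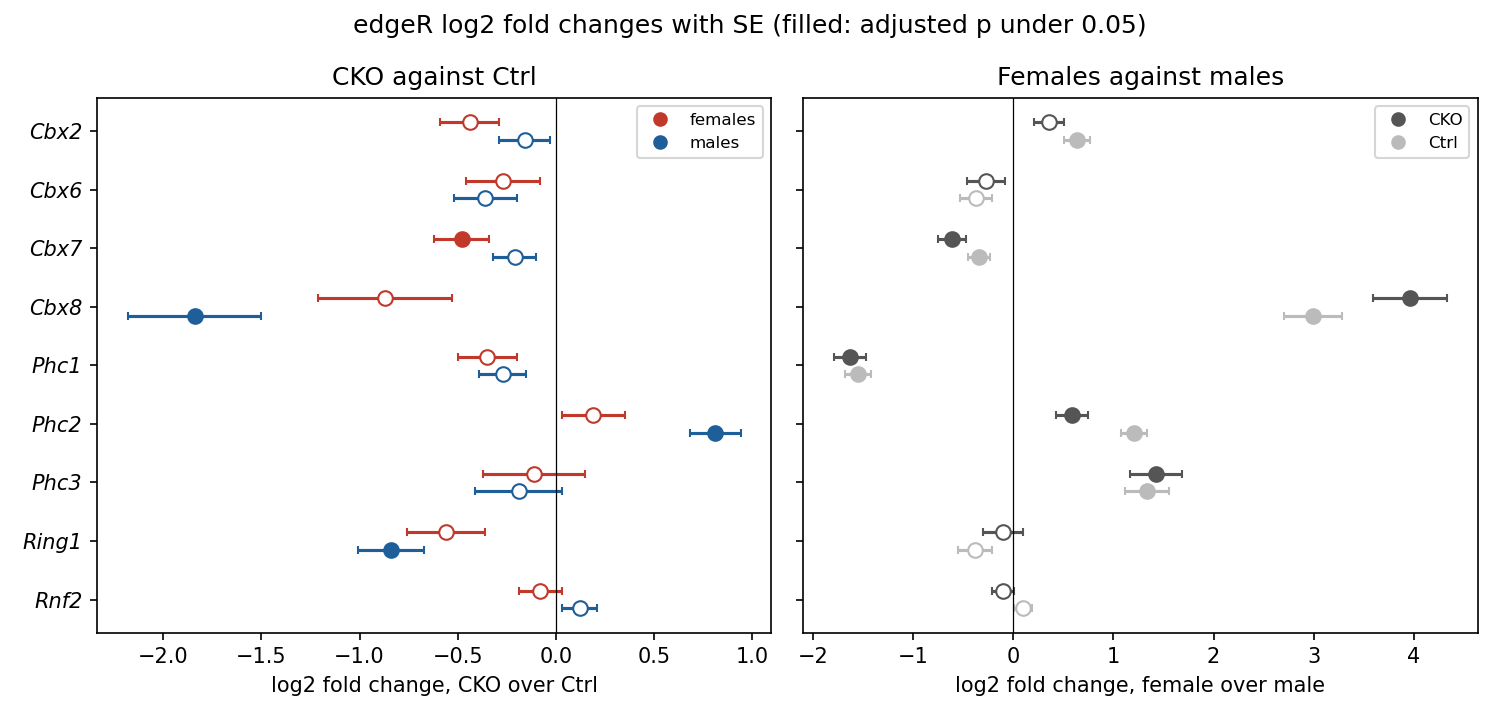
edgeR log2 fold changes with SE for CKO over Ctrl in each sex (left) and for females over males in each genotype (right), filled where the adjusted p was under 0.05. On the left Cbx8, Phc2 and Ring1 are filled in males and Cbx7 in females, and on the right Phc1 lies at -1.63 and -1.55 and Cbx8 at 3.96 and 2.99.

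Counted over the family, 1 of 9 genes was called in female CKO against female Ctrl, and it was lower, where 7.17% of all tested genes were called, 3.01% higher and 4.16% lower. In male CKO against male Ctrl, 3 of 9 were called, 1 higher and 2 lower, where 1.7% of all tested genes were called, 1.2% higher and 0.497% lower. Averaged over the sexes, 5 of 9 were called, 1 higher and 4 lower, against 14.7% of all tested genes (6.85% higher and 7.87% lower). None of the 12 fits that leave out an embryo gave 5 again: they gave 3 to 6, with 3 without female CKO embryo 1 or male CKO embryo 3. CKO and Ctrl embryos did not overlap for 6 of 9 genes in females, where 44.6% of all tested genes did not, and for 4 of 9 in males, where 15% did not. The median log2 fold change of the 9 genes was -0.35 in females and -0.21 in males, beside -0.00 and -0.02 over all tested genes. For the difference between the CKO effects of females and males, edgeR called 0 of 9 genes and 0 of 16708 (0% of tested genes). At an unadjusted p under 0.05 it had 1 of 9, Phc2, and 1401 of 16708. DESeq2 called 61 genes and limma-voom 0, none of them among the 9.

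Between the sexes, 5 of 9 genes differed among CKO embryos, 3 higher and 2 lower in females, where 38.4% of all tested genes were called (19.4% higher and 19% lower). Among Ctrl embryos 6 of 9 differed, 4 higher and 2 lower in females, against 39.5% of all tested genes (20.1% higher and 19.4% lower). The sexes did not overlap for 7 of 9 genes in either genotype, where 64.2% of all tested genes did not overlap among CKO embryos and 43.4% did not among Ctrl embryos. Median absolute log2 fold changes of the 9 genes were 0.59 among CKO embryos and 0.64 among Ctrl embryos, beside 0.56 and 0.47 over all tested genes. Sertoli cell markers summed to 10.5 to 11.2 CPM in female CKO, 11 to 13.9 CPM in female Ctrl, 13.9 to 31 CPM in male CKO and 15.4 to 41.1 CPM in male Ctrl. Aard made up most of the female sums, at 10.2 to 10.7 CPM in female CKO and 10.6 to 13.6 CPM in female Ctrl. In males Aard was at 9.12 to 18.8 CPM in CKO and 7.87 to 19.9 CPM in Ctrl. Amh was at 0 CPM in all females, 1.04 to 4.3 CPM in male CKO and 1.02 to 5.34 CPM in male Ctrl. Sox9, Dhh and Ptgds were also lower in every female library than in any male library, while Cldn11 overlapped. Of the pregranulosa markers, Bmp2 was at 5.33 to 5.74 CPM in female CKO and 2.64 to 3.84 CPM in female Ctrl. In males Bmp2 was at 0.372 to 0.585 CPM in CKO and 0.114 to 0.827 CPM in Ctrl. Wnt4 was also higher in every female library than in any male library. Wnt6 and Fst reached their highest values in males, and Foxl2 overlapped. The part of the Sertoli cell and pregranulosa markers in the sex differences was not tested. Scaling by library size alone put the median log2 fold change of all genes between the sexes at 0.21 among CKO embryos, against 0.03 with the trimmed-mean factors, and at 0.10 among Ctrl embryos, against 0.00. For CKO against Ctrl in females it put that median at 0.11, against -0.00. Under it, 64.6% of the genes called in females were higher in CKO, against 42% with the trimmed-mean factors. In the sex contrasts 66.2% (CKO) and 61% (Ctrl) of called genes were higher in females under it, against 50.5% and 50.8%, and for the CKO effect averaged over the sexes 65.8% were higher, against 46.5%. No called gene among the 9 changed direction under it.

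Other subunits of PRC1, which pair with the RING proteins or belong to variant complexes, numbered 19 on the list. In female CKO 2 of 19 were lower, where 4.16% of all tested genes were, L3mbtl2 (log2 fold change -0.60, adjusted p = 0.0274) and E2f6 (-0.47, adjusted p = 0.0381), and in male CKO 2 of 19 were higher, where 1.2% of all tested genes were, Yaf2 (0.60, adjusted p = 0.0304) and Bmi1 (0.53, adjusted p = 0.0397). Averaged over the sexes, 3 of 19 rose and 1 fell, where 6.85% of all tested genes were higher and 7.87% lower. Yaf2, a partner of the RING proteins in variant PRC1, rose by 0.46 and L3mbtl2 fell by 0.45, and these calls held in all 19 alternatives, while those of Bcorl1 (1.03) and Scml2 (0.59) held in 12 and 11. Within a sex the calls were less firm, with E2f6 called in 7, Bmi1 in 8, Yaf2 in 15 and L3mbtl2 in 16 of 20 alternatives. The female call of L3mbtl2 was lost without female CKO embryo 2 (0.237), female Ctrl embryo 1 (0.0787) or female Ctrl embryo 2 (0.0809), and the male call of Yaf2 without male CKO embryo 2 (0.163) or 3 (0.0631). The median log2 fold change of the 19 genes was 0.02 in females and 0.07 in males.

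PRC2 subunits were called lower in females for 3 of 12, with Ezh2 joined by Suz12 and Jarid2, where 4.16% of all tested genes were lower, and 0 of 12 were called in males, where 1.7% of all tested genes were. Suz12, a core subunit, averaged 139.9 ± 17.6 CPM in female CKO (SD, n = 2) and 231 ± 29.8 CPM in female Ctrl (n = 3), with a log2 fold change of -0.72 (adjusted p = 0.0132). Jarid2, an accessory subunit, averaged 212 ± 2.43 CPM in female CKO and 341 ± 11.8 CPM in female Ctrl (-0.69, adjusted p = 0.012). Leaving out a female embryo ended the calls of Suz12 (highest adjusted p = 0.114, female CKO 1 or female Ctrl 3 left out) and of Jarid2 (0.076, female CKO 1 or 2 left out). Both fell on average over the sexes, by 0.46 and 0.50, and held in all 19 alternatives of that average. The median of the 12 PRC2 genes was -0.16 in females and -0.17 in males. Among 6 genes of the H2A deubiquitinases, which remove the mark that the RING proteins place, Asxl3 was called higher in female CKO (3.14 ± 0.837 CPM, n = 2) than in female Ctrl (0.639 ± 0.0891 CPM, n = 3), at 2.29 (adjusted p = 0.0179), where 3.01% of all tested genes were higher. None of the 6 was called in males. The Asxl3 call was lost without female CKO embryo 2, female Ctrl embryo 2 or female Ctrl embryo 3 (highest adjusted p = 0.117). On average over the sexes Asxl3 rose by 1.30, called in all 19 alternatives but that without female CKO embryo 2 (0.079), and Asxl1 fell by 0.36, called in 15 and lost without female CKO embryo 1 (0.0786) or 2 (0.0519). The median of the 6 genes was -0.08 in each sex. Of the 3 heterochromatin chromobox genes, whose proteins read methylation of lysine 9 rather than 27 of histone H3, Cbx3 fell on average over the sexes (-0.55, adjusted p = 0.00645, called in all 19 alternatives), and it was called in females (-0.63, adjusted p = 0.0413) in 9 of 20. The median of these 3 genes was -0.21 in females and -0.05 in males.

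Genes known to be repressed by PRC1 in mouse germ cells or fibroblasts were few on the list, and it was chosen with earlier results of these data known. Of 5 such genes, 2 were called higher in female CKO, 0 in male CKO and 3 on average over the sexes, where 3.01%, 1.2% and 6.85% of all tested genes were higher in these 3 comparisons, and the median of the 5 was 0.76 in females and 0.60 in males. Cdkn2a, a cell cycle inhibitor locus, averaged 4.99 ± 0.637 CPM in female CKO (SD, n = 2) and 1.11 ± 0.31 CPM in female Ctrl (n = 3). In males it averaged 3.81 ± 2.39 CPM in CKO (n = 3) and 1.11 ± 0.507 CPM in Ctrl (n = 4). Cdkn2a rose by 2.17 in females (adjusted p = 0.026) and by 1.97 on average over the sexes (adjusted p = 0.00274, called in all 19 alternatives), and its female call was lost without any one of the 5 female embryos (highest adjusted p = 0.119). Stra8, the inducer of meiotic entry, averaged 439.8 ± 198 CPM in female CKO and 261 ± 44.1 CPM in female Ctrl, and 6.48 ± 2.83 CPM in male CKO and 2.16 ± 1.04 CPM in male Ctrl. It rose by 1.16 on average over the sexes (adjusted p = 0.0122), called in 16 of 19 alternatives and lost without female CKO embryo 1 (0.0604). Sycp3, of the synaptonemal complex, rose by 1.10 in females (adjusted p = 0.0185), a call lost without female CKO embryo 1 (0.266), female Ctrl embryo 1 (0.0551) or female Ctrl embryo 3 (0.0728). Rec8, a meiotic cohesin, was not called, at 173 ± 18 CPM in female CKO and 127 ± 19.5 CPM in female Ctrl. Stromal markers, given above, were higher in both female CKO libraries than in any female Ctrl library. Coelomic epithelium markers summed to 25.8 and 41 CPM in female CKO, against 59.8 to 65.5 CPM in female Ctrl, most of it Lrrn4. Krt19 of the same list lay the other way, at 0.692 and 0.82 CPM in female CKO, against 0 to 0.125 CPM in female Ctrl, and at 2.2 to 3.02 CPM in male CKO, against 0.495 to 1.21 CPM in male Ctrl. Pecam1 was at 129 and 158 CPM in female CKO, against 238 to 299 CPM in female Ctrl. The part of these markers in the results was not tested.

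The genomic neighbours given here for the genes called in male CKO were not called there. They were Cbx2 beside Cbx8, on the opposite strand (-0.16), Zscan20 and A3galt2 on either side of Phc2 (-0.14 and 1.40, A3galt2 being at 0.581 CPM in male CKO and 0.222 CPM in male Ctrl), and H2-K1 and H2-Ke6 on either side of Ring1 (-0.10 and 0.04). H2-K1 was called higher in female CKO (1.43, adjusted p = 0.0305), where Ring1 was at -0.56. Beside Phc3, Gpr160 rose in male CKO (1.07, adjusted p = 0.0263) and Prkci fell in female CKO (-0.58, adjusted p = 0.00766), and beside Cbx7, Apobec3 rose on average over the sexes (0.87, adjusted p = 0.0438). Of these calls, H2-K1 held in 14 of 20 alternatives, and was lost without female CKO embryo 1 (0.404) or female Ctrl embryo 1 (0.0802) or 3 (0.106). Prkci held in 19 of 20, all but that without female CKO embryo 1 (0.0569), Gpr160 held in 13 of 20 (highest adjusted p = 0.116) and Apobec3 in 8 of 19 (highest 0.263). Pdgfb beside Cbx7, M6pr and 1700063H04Rik beside Phc1, and Rbfox3 beside Cbx2 were called in no comparison of CKO with Ctrl. H2-K1 belongs to a family of close paralogs, whose shared reads the authors' counting could split. The library chemistry does not mark strand, so reads in stretches shared with a gene on the other strand cannot be assigned. Such stretches were 100 bases between Cbx7 and Apobec3 and 158 bases between Rnf2 and Trmt1l. Cbx6 shares 10342 bases of its span with Npcd on the same strand, and Npcd had 0 counts in all libraries. Transcripts of Cbx6 and Npcd share a stretch of 563 bases at 100% identity. Whether reads there were counted for Cbx6 is not known. No other gene shared a stretch of at least 100 bases at 95% identity with any of the 9.

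Genes whose pattern over the 12 embryos was most like that of a family member were found by the root mean square difference of centred log2 CPM, among 10241 genes averaging at least 5 CPM. For Cbx8 these were Insm1 (0.544), Lhx2 (0.568) and Chadl (0.612), where the median over all genes was 1.87. For Phc1 they were Kctd18 (0.11), Pnpla6 (0.123) and Sh3bp4 (0.146), with a median of 0.804. Phc2 was nearest to Tmem158 (0.191), Ctnnbip1 (0.194) and Dtnbp1 (0.197), with a median of 0.666, and Phc3 to Eml3 (0.202), Lcorl (0.22) and Ap5b1 (0.224), with a median of 0.799. Ring1 was nearest to Sec16a (0.137), Wdr90 (0.155) and 3110053B16Rik (0.159), with a median of 0.493. Among the CBX genes with smaller differences, Cbx2 was nearest to Ogdh (0.105), Slk (0.109) and Stard7 (0.115), and Cbx7 to Rcc2 (0.076), Dhx30 (0.0806) and Dhx33 (0.084). The distances describe likeness over these 12 libraries, which share the difference between the sexes.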

How the data were processed

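The values used are raw read counts for each gene in the 12 libraries, as deposited by the authors. Per the labels' protocols, SMART-seq V4 was used to amplify cDNA out of 1 ng of RNA, which does not mark strand. Tools named in the submitters' processing notes are TopHat2 2.0.11, Trimmomatic 0.33, CASAVA 1.8.4 and featureCounts, and the builds named are mm9 and NCBIM37, with no roles stated. How reads matching several places were counted is not given in the sources used here. Symbols (32919 of 37991 identifiers matched), exon lengths and gene order came from GENCODE M21 on GRCm38, and promoter sequences from RefSeq on GRCm38.p6.

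Genes were filtered with filterByExpr (minimum count 10, minimum total 15) and scaled with TMM (trimmed mean of M values, factors 0.926 to 1.11). The quasi-likelihood fit of edgeR 4.0.16 (limma 3.58.1, R 4.3.3) had 1 coefficient per group over all 12 libraries, with 8 residual degrees of freedom, which were shared because female CKO has 2 embryos. P-values were adjusted by Benjamini-Hochberg over 16708 genes, and calls were made at an adjusted p under 0.05. Alternatives were 2 other scalings, no filter, only the groups compared, 2 replicate blocks, limma-voom, DESeq2 1.42.0 and leaving out each library. The edgeR script was tested on simulated data. The replicate numbers were not used to pair samples in the fit reported, and whether they mark pairs was not settled. The 9 genes, the gene lists and the markers were chosen with earlier results of these data known. Named genes were the 9, Ezh2, up to 4 called genes per list, the nearest tested neighbours and the 3 most alike genes of each called member. In addition Rec8, Trmt1l and Npcd were named after their values were seen. One gene that the rule selects is not reported here.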

Additional observations from a re-analysis of the deposited data

How the results depend on the processing

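Of 1062 recomputed log2 fold changes of the 9 genes, 977 kept their direction and their side of the threshold, 52 lost a call, 13 gained one and 20 changed sign, each of these last for a gene without a call. The number of the 9 genes called in female CKO against female Ctrl was 1 with DESeq2 and with the replicate block on the title numbers, and 0 under median-of-ratios scaling, library size only, no filter, only the groups compared, the replicate block on the description numbers and limma-voom. Leaving out an embryo gave 0 to 1. In males the count was 1 with only the groups compared and 0 to 3 when an embryo was left out, with 0 without male CKO embryo 2 and 1 without male CKO embryo 3 or male Ctrl embryo 3. Averaged over the sexes it was 3 with library size only and with the replicate block on the description numbers, 7 with DESeq2, and 3 to 6 when an embryo was left out, with 5 in 0 of 12 such fits. The cause was not tested. The count for the difference between the sexes in the CKO effect was 0 throughout, and over all genes it was 0 to 3 in edgeR. Females against males gave 4 to 6 among CKO and 5 to 8 among Ctrl embryos when an embryo was left out.

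Sign changes in females were those of Phc3 (0.00 with library size only, 0.11 with the description block, -0.19 to 0.09 leaving out embryos) and Rnf2 (0.04 with library size only, -0.12 to 0.01). For the average over the sexes Rnf2 ran from -0.00 to 0.07 leaving out embryos and up to 0.10 with library size only. For the difference of the CKO effects the ranges were -0.00 to 0.20 (Cbx6), -0.18 to 0.00 (Phc1, 0.03 with the description block) and -0.06 to 0.34 (Phc3). Among CKO embryos the female over male value of Ring1 was 0.08 with library size only and 0.01 with the description block, and -0.34 to 0.11 leaving out embryos, and that of Rnf2 was 0.08 with library size only. Deviations of same-numbered libraries of a sex correlated at -0.00144 to 0.228 by title number (5 pairs) and at up to 0.0859 by description number (4 pairs), and 6 of 10 and 4 of 8 libraries correlated best with their own number. The title block gave counts of 1, 3, 5, 0, 5 and 5 in the order females, males, average, difference, CKO sexes and Ctrl sexes, and of the 9 genes it ended the calls of Cbx7 between Ctrl sexes (0.0616) and Phc1 on average (0.0648). Of the 9 genes, the description block ended the calls of Cbx7 in females (0.133) and of Cbx7 (0.0721) and Phc1 (0.194) on average. It gained a call of Cbx2 between CKO sexes (0.0154). Among the other genes named, it ended the female calls of Suz12 (0.0538), Cbx3 (0.134), E2f6 (0.0657), Sycp3 (0.107) and H2-K1 (0.165). It also ended the male calls of Bmi1, Yaf2 and Gpr160, and those of Asxl1, Scml2, Stra8, Sycp3 and Apobec3 on average. Over all genes, calls in females ran from 317 to 2068 (1198 reported) and in males from 36 to 1122 (284 reported), and on average over the sexes from 1363 to 3508 (2460 reported). Low counts of Cbx8 in male CKO (13 to 21) limit its precision.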
